A study of Mus musculus with 4 samples.

Results

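Small leucine-rich proteoglycans are secreted proteins built from a run of leucine-rich repeats, most of which carry chondroitin, dermatan or keratan sulfate chains. They bind along collagen fibrils and set their diameter and spacing, and several of them bind transforming growth factor beta. In heart valves they are made by the interstitial cells, and decorin and biglycan are known to bind microfibril components as well as collagen. Values are given here for 8 genes of the family, Dcn, Bgn, Aspn, Lum, Fmod, Prelp, Omd and Ogn. They were chosen by name, with earlier results of these data known. Every probe set annotated to 1 of these genes alone was taken, which gave 18 of the 22690 probe sets and 8 of the 12393 genes that had a probe set of their own.

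Total RNA had been extracted from mitral valves of mice. The homozygous (Hom) group held 1 array, labelled Fbn1 C1039G/C1039G, the heterozygous (Het) group 2 arrays, labelled Fbn1 C1039/+, and the wild-type (WT) group 1 array, labelled Fbn1 +/+. Fbn1 encodes fibrillin-1, the main protein of extracellular microfibrils, and G in the Hom label names the residue put in place of the cysteine; the Het label names no residue. The labels give no age, sex, strain or treatment, and do not say whether an array holds 1 animal or a pool. By their mean over the arrays, 16 of 16 markers of interstitial cells and fibroblasts passed the filter on low values, but so did 21 of 21 of cardiomyocytes, and on each array 0 of either list were at the floor, so transcripts of heart muscle were present beside those of valve.

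Intensities are the deposited linear values, rescaled so that all arrays share 1 median, and a log2 difference has the group named first minus the group named second. Values under 18.95, the 25th percentile of all values, were raised to that floor before log2 was taken, so a difference that involves a floored value is too small. A gene was kept when its mean over the arrays reached 60.4, the median of all probe sets, and its probe set with the highest mean stood for it. Of the 8 genes 7 were kept, and Omd was not. The differences were tested with limma over all 7319 genes kept. The only replicate spread came from the 2 Het arrays, which the lone Hom and WT arrays were assumed to share. In limma each gene's spread is drawn toward a value common to all genes, so a standard error (SE) is not that gene's own replicate spread. Nothing says that the Het arrays came from separate animals, so p-values measure only the spread between these arrays. Where 2 Het values stand together, that of replicate 1 is first.

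Het replicate 2 stood apart from the other arrays. Its centring added 0.19 log2 units, whereas the other arrays were lowered by 0.05 to 0.09, and the median gene then lay 0.19 above WT in Het replicate 2, against -0.002 in Het replicate 1. Its Actb 3' to 5' ratio was 3.04 and those of the other arrays 2.16 to 2.25. The summed intensity of the 21 cardiomyocyte markers was 29737 in Het replicate 2 and 51679 to 67336 on the other arrays, and that of 14 macrophage markers was 9042 in Het replicate 2 and 4184 to 4973 on the other arrays. The Het arrays are therefore given separately throughout, and "Het mean" is the mean of their log2 values.

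In class I of the family, decorin (Dcn) differed more between the Het arrays than biglycan or the brighter asporin probe set did. Dcn, which binds collagen and sets fibril diameter, read 10878 in Hom, 14145 and 8043 in Het replicates 1 and 2, and 13526 in WT. Het replicate 1 was thus the highest array and Het replicate 2 the lowest, so the Het group spanned both Hom and WT. The log2 difference between Het replicate 2 and Het replicate 1 was -0.81, and only 3.59% of all genes had a lower one. The Het mean minus WT was -0.34 (SE 0.49), and Hom minus WT was -0.31 (SE 0.57). After quantile normalization these became -0.10 and 0.03. In bulk tissue, fewer cells that make a transcript and less of it in each cell cannot be told apart.

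Biglycan (Bgn), the closest relative of decorin and a gene of the X chromosome, had 3 probe sets. The brightest read 5301 in Hom, 4923 and 4460 in Het replicates 1 and 2, and 6005 in WT. A second read 4494 in Hom, 4491 and 3892 in Het, and 5373 in WT, and the third 4255 in Hom, 4209 and 3186 in Het, and 4388 in WT. Het replicate 2 was the lowest array and WT the highest on each of the 3 probe sets, with Hom and Het replicate 1 between them. The Het mean lay 0.36 log2 units below WT by the brightest probe set (log2 difference -0.36, SE 0.46), and the 3 probe sets gave values from -0.36 to -0.26. Hom minus WT ran from -0.26 to -0.04 over the probe sets, and the brightest gave -0.18, which turned to 0.01 after quantile normalization.

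Asporin (Aspn), which is known to bind collagen and transforming growth factor beta, showed little difference with its brighter probe set, at 251.2 in Hom, 295.7 and 307.8 in Het, and 291.6 in WT. Both Het arrays were marginally above WT and Hom was lowest. The second probe set read 210.8 in Hom, 176.7 and 325.7 in Het, and 296.5 in WT, so it placed Het replicate 1 lowest and Het replicate 2 highest. The 2 probe sets gave Het replicate 2 minus Het replicate 1 differences of 0.06 and 0.88, and Aspn therefore has no settled order among the arrays. Its Het minus WT difference, 0.05 (SE 0.46), was -0.06 without centring, -0.08 after quantile normalization and -0.13 with the mean of both probe sets.

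In class II, lumican (Lum) followed biglycan closely. Lum, a keratan sulfate proteoglycan that limits lateral growth of collagen fibrils, read 3603 in Hom, 3488 and 3240 in Het, and 4280 in WT. Het replicate 2 was again the lowest array and WT the highest. The Het mean minus WT was -0.35 (SE 0.46), and Hom minus WT was -0.25 (SE 0.53), which became -0.09 after quantile normalization.

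Fibromodulin (Fmod), which binds collagen type I at the site that lumican uses and takes part in fibril assembly, gave the lowest Het minus WT difference of the 7 genes kept. Its brightest probe set read 1006 in Hom, 627.5 and 752.1 in Het, and 980.2 in WT, with both Het arrays below both other arrays. The Het mean minus WT was -0.51 (SE 0.46), a 1.43-fold lower level, and 4.18% of all genes had a lower value. Hom lay 0.55 above the Het mean (SE 0.46), and 96.8% of all genes had a lower difference.

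The other 5 probe sets of Fmod placed the Het arrays below WT as well, so that 6 of 6 did so for each Het array. One of them, unlike the others not of a kind that may also bind related transcripts, read 615.7 in Hom, 389.0 and 358.3 in Het, and 702.2 in WT. Over the 6 probe sets the differences from WT ran from -1.11 to -0.64 in Het replicate 1 and from -0.97 to -0.28 in Het replicate 2. Both Het arrays lay below Hom with 5 of 6 probe sets; with the remaining one Het replicate 2 read 651.3 and Hom 565.3. The probe sets did not agree on Hom against WT, where 4 of 6 placed Hom lower and the range was -0.49 to 0.40; the brightest gave 0.04, and the mean of all 6 gave -0.14. Because these probe sets read 1 transcript on the same arrays, they are not replicates of a genotype.

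Prelp, which binds collagen and basement membrane heparan sulfate, resembled Fmod. Its probe set above the filter read 950.6 in Hom, 607.8 and 605.1 in Het, and 795.5 in WT, so the Het arrays were almost equal and below both other arrays. The Het mean minus WT was -0.39 (SE 0.46), Hom minus WT was 0.26 (SE 0.53), and Hom minus the Het mean was 0.65 (SE 0.46), with 98.0% of all genes lower. That probe set belongs to a kind that may also bind related transcripts. The second, below the filter, read 13.3 in Hom, 10.7 and 26.8 in Het, and 74.7 in WT. It too placed both Het arrays below WT, but Hom and Het replicate 1 were under the floor, so it did not repeat the higher level of Hom.

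Osteomodulin (Omd), a keratan sulfate proteoglycan of bone, stayed near the floor, at 36.0 in Hom, 7.0 and 28.1 in Het, and 26.3 in WT. Het replicate 1 was under the floor and the other 3 arrays were little above it, and at this signal no difference between the genotypes was detectable.

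In class III, osteoglycin (Ogn, also called mimecan), a small protein of the collagen matrix, had 2 probe sets. The brighter read 962.0 in Hom, 897.3 and 1258 in Het, and 1351 in WT, with WT highest and Hom between the Het arrays. The other read 266.5 in Hom, 187.6 and 211.8 in Het, and 337.5 in WT, with WT highest again but both Het arrays below Hom. Hom minus WT was -0.49 (SE 0.55), the lowest of the 7 genes, and the other probe set gave -0.34. The Het mean minus WT was -0.35 (SE 0.47) and -0.76 with the 2 probe sets.

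**Figure D1:**
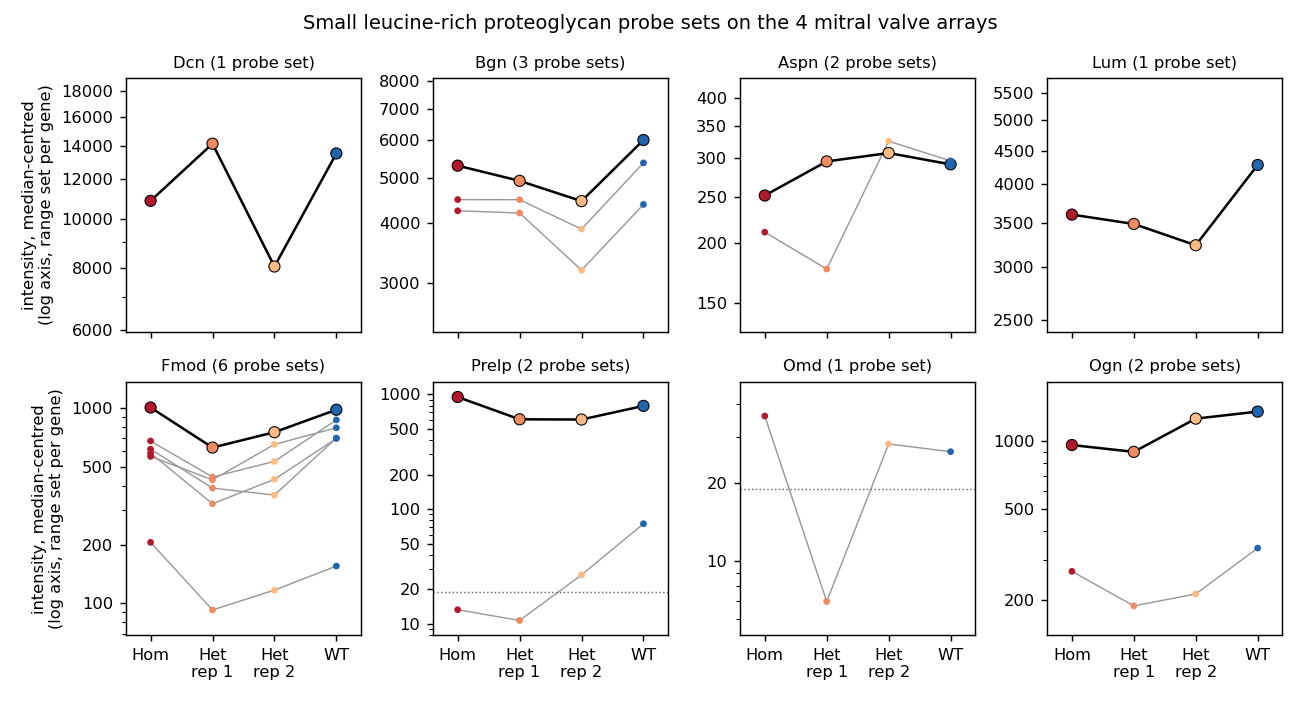
Median-centred intensity (vertical log axis, with a range of its own for each gene) of every probe set of the 8 genes on the Hom, Het replicate 1, Het replicate 2 and WT arrays; each point is 1 array, lines join the values of 1 probe set, black lines mark the probe set that stands for the gene and the dotted line is the floor. All 6 Fmod probe sets put both Het arrays below WT, while Dcn is highest in Het replicate 1 and lowest in Het replicate 2.

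None of the 7 genes passed limma's adjusted threshold of 0.05 in any comparison. The lowest limma adjusted p of any member was 0.9999 when Het or Hom was set against WT, and 0.9998 when Hom was set against Het. At an unadjusted 0.05, 0 of the 7 passed in each comparison, and the lowest unadjusted limma p-values were 0.286 (Fmod, Het against WT), 0.383 (Ogn, Hom against WT) and 0.179 (Prelp, Hom against Het). Over all 7319 genes, limma called 0.0137% for Het against WT, which was 1 gene, where 84 had an unadjusted p under 0.05. It called 0% when Hom was set against WT and 0% when Hom was set against Het, where 32 and 63 had an unadjusted p under 0.05.

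The intervals show what these arrays can resolve. For Het minus WT the 95% interval of Fmod ran from -1.50 to 0.47 log2 units and that of Prelp from -1.37 to 0.59. For Hom minus WT the interval of Ogn ran from -1.65 to 0.67. Every interval of the 7 genes included 0 in each of the 3 comparisons, and all standard errors lay between 0.46 and 0.57. None of the differences above was large enough to pass the test at that spread, and the same intervals do not show that the levels were equal.

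**Figure D2:**
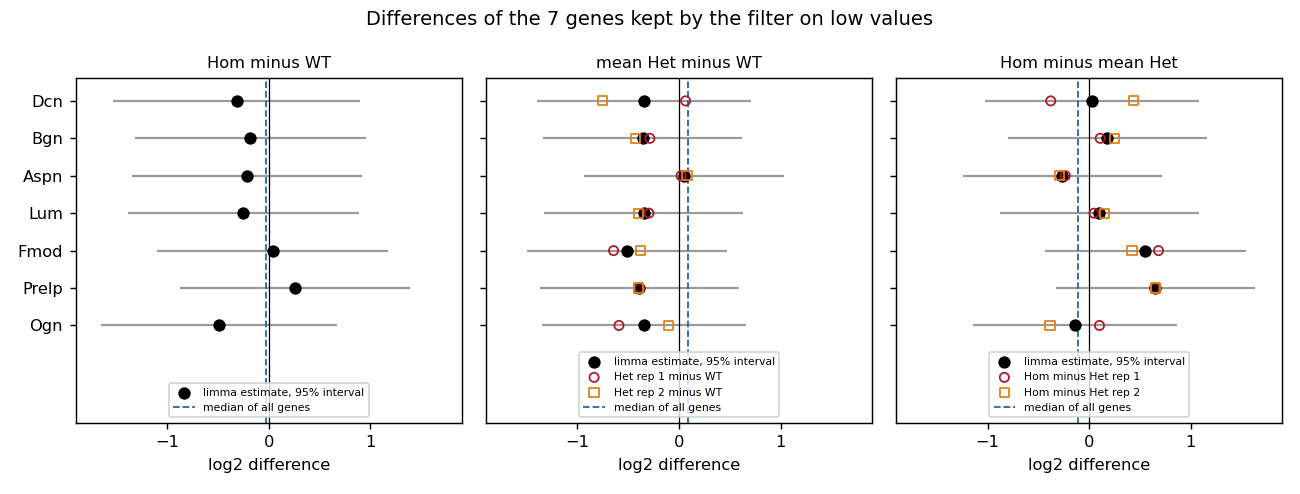
Log2 differences (horizontal axes) of the 7 genes kept, for Hom minus WT, the Het mean minus WT, and Hom minus the Het mean; black points with grey bars are limma estimates with 95% intervals, open symbols the single Het arrays, and the dashed line the median of all genes. Every interval includes 0, and Fmod and Prelp lie farthest right for Hom against Het.

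Counted over the 7 genes kept, none of which passed the test, both Het arrays were below WT for 5 of 7 genes (Bgn, Lum, Fmod, Prelp and Ogn), whereas 21% of all genes had both Het arrays below WT. Aspn had both Het arrays above WT, which held for 35.5% of all genes. The members' median was -0.30 in Het replicate 1, where the median of all genes was -0.002, and -0.39 in Het replicate 2, where that of all genes was 0.19. The 2 Het differences share the WT array, and the members were not chosen blind to earlier results of these data. The count stayed at 5 when the arrays were left as deposited, where 28.9% of all genes had both Het arrays below WT, and after quantile normalization, where 28.4% had.

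Both Het arrays were also below Hom for 4 of 7 genes (Bgn, Lum, Fmod and Prelp), as for 18.8% of all genes. These 4 genes thus had their lowest levels in both Het arrays, below both Hom and WT, which 10.4% of all genes did. Of the 4, Fmod and Prelp were separated from Hom by 0.42 to 0.68 log2 units in each Het array, whereas for Bgn and Lum the gap was 0.05 to 0.25. These gaps are those of the probe sets that stand for the genes. A further Fmod probe set, and the Prelp probe set below the filter, placed Het replicate 2 above Hom.

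In Hom, 5 of 7 genes (Dcn, Bgn, Aspn, Lum and Ogn) were below WT, with 53.3% of all genes below. Fmod and Prelp were above by the probe sets that stand for them, with 46.7% above, but their other probe sets did not all agree. Of the 6 Fmod probe sets 4 placed Hom below WT, as did the second Prelp probe set, which was below the filter. Hom and both Het arrays were all below WT for 3 of 7 genes (Bgn, Lum and Ogn), against 16.1% of all genes. The members' median for Hom minus WT was -0.21 against -0.02 for all genes, but it was 0.01 after quantile normalization, which also turned Dcn and Bgn. Of the 7 genes 0 were at least 2-fold lower or higher in Hom, against 0.465% and 0.437% of all genes.

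**Figure D3:**
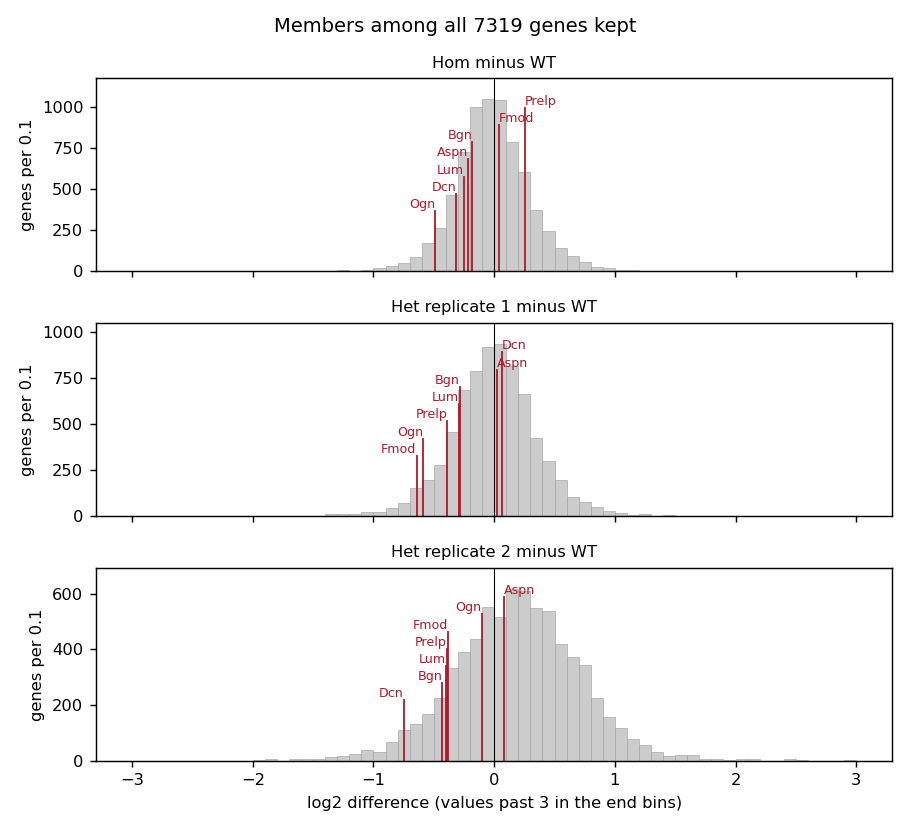
Histograms of the log2 difference (horizontal axis) over all 7319 genes (vertical axis, genes per step of 0.1) for Hom, Het replicate 1 and Het replicate 2 minus WT, with the 7 members as red lines whose heights only separate the names. In Het replicate 2 the distribution is wider and its median is 0.19, while 6 of the 7 members lie left of 0.

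The members' patterns over the 4 arrays were also compared with one another, as the Euclidean distance between log2 intensities taken relative to each gene's own mean. Of the 21 pairs, Bgn and Lum were closest, at 0.07 log2 units, followed by Fmod and Prelp, at 0.25. Dcn and Ogn were farthest apart, at 0.93. Most of the genes lie next to another member in the genome, and the pairs of like pattern only partly follow this arrangement. In GRCm38.p6, Prelp (chromosome 1, 133910304 to 133930102) and Fmod (134037254 to 134048280) lie 107.2 kb apart, Dcn and Lum on chromosome 10 lie 47.3 kb apart, and Aspn, Omd and Ogn follow each other on chromosome 13 with gaps of 14.9 and 15.4 kb. Dcn and Lum, though neighbours, had a distance of 0.50.

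The sequence before the start site of the promoter table is shown for the neighbours Fmod and Prelp, whose levels were lowest in both Het arrays, and for Aspn, whose brighter probe set hardly differed. Of the 8 genes 6 had an entry in the RefSeq promoter table (GRCm38.p6); Dcn and Lum were not matched. Capitals mark, on both strands, TATAAA, the letters of the TATA box, CANNTG, the E-box bound by basic helix-loop-helix factors, and CAGAC, the core bound by SMAD proteins. No capitalised motifs overlap within these 3 windows of 250 bases. Fmod lies at chr1:134037004-134037253 (plus strand), Prelp at chr1:133921402-133921651 (minus strand), and Aspn at chr13:49544193-49544442 (plus strand). The Prelp window lies inside the gene as annotated, because its start site is 8.7 kb from the outer 5' end.
Fmod: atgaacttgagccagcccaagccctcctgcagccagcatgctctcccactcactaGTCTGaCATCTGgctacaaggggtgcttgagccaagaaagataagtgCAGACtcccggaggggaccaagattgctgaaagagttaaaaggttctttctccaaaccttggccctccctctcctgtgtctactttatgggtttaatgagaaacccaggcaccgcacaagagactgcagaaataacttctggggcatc
Prelp: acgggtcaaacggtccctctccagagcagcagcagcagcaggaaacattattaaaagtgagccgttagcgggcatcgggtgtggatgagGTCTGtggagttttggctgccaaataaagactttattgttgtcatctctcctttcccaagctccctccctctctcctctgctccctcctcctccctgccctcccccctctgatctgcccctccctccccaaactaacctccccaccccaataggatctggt
Aspn: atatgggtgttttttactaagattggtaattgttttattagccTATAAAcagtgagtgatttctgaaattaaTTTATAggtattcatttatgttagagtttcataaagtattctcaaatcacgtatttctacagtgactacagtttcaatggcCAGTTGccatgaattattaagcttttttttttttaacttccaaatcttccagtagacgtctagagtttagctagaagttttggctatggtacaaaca

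CAGAC occurred 2 times before Fmod, 1 time before Prelp and 0 times before Aspn, and 42.2% of 32851 windows of the same length held it. CANNTG occurred 1 time before Fmod and 1 time before Aspn, with 66.2% of windows holding it. TATAAA was found only in the window of Aspn among these 3, with 2 matches, and in 12.4% of all windows. The 2 matches began 207 and 178 bases before the start site, the latter on the other strand. Whether either acts as a TATA box was not tested. These matches describe the letters of the windows.

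Of 10 further family members listed 4 had a probe set, and 0 passed the filter. Chondroadherin (Chad), a collagen-binding protein of cartilage, read 78.5 in Hom, 10.6 and 9.3 in Het, and 60.8 in WT, so that both Het arrays were under the floor and the others above it. Hom read 4.14-fold above the floor, by a single probe set that did not pass the filter. Epiphycan (Epyc), a cartilage proteoglycan, read 45.9 in Hom, 47.0 and 39.9 in Het, and 86.1 in WT. Keratocan (Kera) was under the floor on 3 arrays and opticin (Optc) on all 4.

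The collagens that these proteoglycans bind were also mostly lower in Het. Of 13 genes listed 12 were kept, and 9 had both Het arrays below WT, against the 21% of all genes given above. Against WT, the list median was -0.08 in Hom and, in the Het arrays, -0.25 and -0.35. Col1a1, a chain of the main fibrillar collagen, read 884.1 in Hom, 891.3 and 667.8 in Het, and 1229 in WT, and Col11a1, a minor fibrillar collagen, 110.7 in Hom, 107.5 and 45.7 in Het, and 170.6 in WT. Col6a2, a chain of the beaded collagen VI, went the other way, at 1475 in Hom, 1117 and 2202 in Het, and 996.8 in WT, as did Col6a1. Col12a1, a fibril-associated collagen, read 274.4 in Hom, 58.9 and 55.8 in Het, and 71.0 in WT, so it was high in Hom only. No gene of the list passed limma's adjusted threshold.

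Among the enzymes that build the sugar chains, those of chondroitin and dermatan sulfate lay near all genes in Het, while the few keratan sulfate genes kept lay lower. Of 12 chondroitin and dermatan sulfate genes kept, 2 had both Het arrays below WT, against 21% of all genes. Against WT the list medians were 0.13 in Hom and, in the Het arrays, 0.003 and 0.09. Papss2, which makes the sulfate donor, read 151.9 in Hom, 144.1 and 138.0 in Het, and 179.7 in WT, while Chpf, a chondroitin polymerising factor, read 167.4 in Hom, 191.4 and 109.5 in Het, and 111.0 in WT. Csgalnact1, which starts chondroitin chains, had a Hom minus WT difference of -0.50, and Chpf2 one of 0.50. Of 8 keratan sulfate genes on the array only 3 were kept, and 2 of them had both Het arrays below WT, against the same 21% of all genes. B3gnt2 read 117.8 in Hom, 138.1 and 139.5 in Het, and 165.3 in WT. B4galt1 read 441.2 in Hom, 357.8 and 371.3 in Het, and 466.3 in WT, and Fut8 114.2 in Hom, 160.1 and 179.5 in Het, and 162.2 in WT. Their list medians against WT were -0.49 in Hom and, in the Het arrays, -0.26 and -0.24.

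Among 6 proteases and helpers kept, 3 had both Het arrays below WT, against 21% of all genes. Bmp1, which removes the propeptide of biglycan and osteoglycin, read 417.0 in Hom, 483.7 and 323.3 in Het, and 385.4 in WT. Mmp14, a membrane metalloprotease, read 1861 in Hom, 1363 and 1471 in Het, and 1904 in WT, and Mmp2, a gelatinase, 2528 in Hom, 2229 and 2001 in Het, and 2479 in WT. Adamts5, an aggrecanase, had a Hom minus WT difference of -0.44.

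Among 16 receptors and ligands that bind the core proteins, 6 had both Het arrays below WT, against 21% of all genes. Tgfb1, the growth factor bound by decorin and biglycan, read 107.8 in Hom, 73.0 and 76.5 in Het, and 105.9 in WT, the order seen for Fmod. Lrp1, an endocytic receptor of decorin, read 189.2 in Hom, 184.3 and 172.9 in Het, and 246.7 in WT. Ccn2, connective tissue growth factor, was high in Het replicate 2 only, at 876.2 in Hom, 757.1 and 2378 in Het, and 775.5 in WT. Hom was below WT for 8 of the 16 genes, against 53.3% of all genes. Pdgfb (0.39) and Bmp4 (0.36) had the highest Hom minus WT differences of this list. Of 15 other proteoglycans, 4 had both Het arrays below WT, near the 21% of all genes. Aggrecan (Acan) was among the 4, at 66.3 in Hom, 45.5 and 55.1 in Het, and 102.1 in WT. No gene of the enzyme, protease, receptor and ligand, or other proteoglycan lists passed limma's adjusted threshold.

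**Figure D4:**
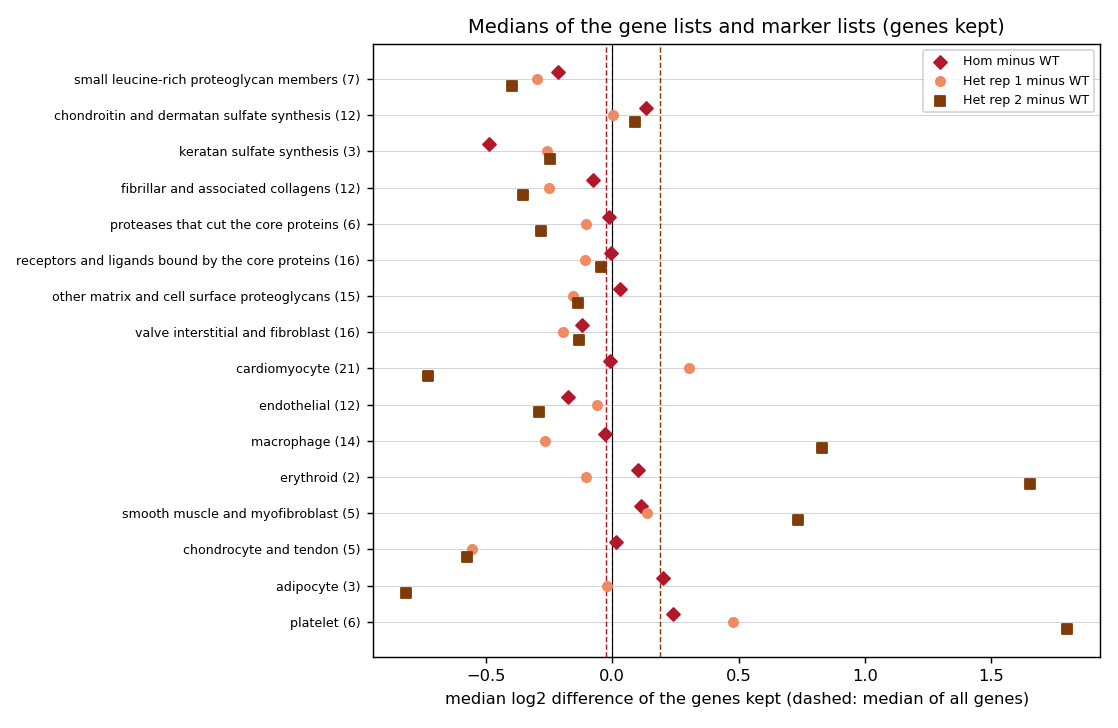
Median log2 difference (horizontal axis) of the genes kept in each list (number in brackets) for Hom, Het replicate 1 and Het replicate 2 minus WT; dashed lines are the medians of all genes in the same colours. The members lie left of all genes in both Het arrays, as do the keratan sulfate, collagen, protease, receptor and ligand, other proteoglycan, interstitial, endothelial, chondrocyte and tendon, and adipocyte lists. The chondrocyte and tendon list lies farther left than the members in both, at -0.55 and -0.57.

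Cell type markers also differed between the arrays. Of the 16 interstitial and fibroblast markers, 9 had both Het arrays below WT, against 21% of all genes. The 16 markers summed to 35776 in Hom, 33681 and 35574 in Het, and 42293 in WT, so WT was highest as it was for Bgn, Lum and Ogn. Their median difference from WT was -0.12 in Hom and, in the Het arrays, -0.19 and -0.13. Periostin (Postn), a matrix protein of valve interstitial cells, read 8656 in Hom, 5863 and 6639 in Het, and 10859 in WT. Vimentin (Vim), a filament of mesenchymal cells, read 9242 in Hom, 10641 and 7841 in Het, and 11760 in WT. Postn and Vim were the brightest genes of the list on every array, so the order of its sums leans on them. Other markers of the list were higher in Het, among them S100a4, a calcium-binding protein, at 322.9 in Hom, 544.2 and 2093 in Het, and 348.1 in WT, and Thy1, a surface glycoprotein, at 210.2 in Hom, 205.0 and 225.2 in Het, and 179.7 in WT. The collagen processing enhancer Pcolce and the transcription factor Tcf21 parted the Het arrays, with replicate 1 under the WT value and replicate 2 over it. The 5 chondrocyte and tendon markers kept summed to 934.9 in Hom, 709.8 and 716.4 in Het, and 1028 in WT. Among them Col9a1, a cartilage collagen, read 506.4 in Hom, 334.5 and 329.8 in Het, and 491.0 in WT, and Comp, a cartilage matrix protein, 255.5 in Hom, 178.6 and 197.7 in Het, and 237.2 in WT. Tnmd, a membrane protein of tendons, was below WT on all mutant arrays, at 48.4 in Hom, 70.5 and 45.5 in Het, and 139.8 in WT. Thbs4, a thrombospondin of tendon, read 58.3 in Hom, 80.7 and 88.4 in Het, and 57.8 in WT, with both Het arrays highest.

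The 12 endothelial markers summed to 5819 in Hom, 6281 and 5314 in Het, and 6636 in WT. The 6 platelet markers kept summed to 1144 in Hom, 2309 and 4250 in Het, and 1309 in WT, and include Ppbp, the only gene that limma called for Het against WT. The 5 smooth muscle markers summed to 4249 in Hom, 4357 and 6908 in Het, and 3735 in WT. The 2 erythroid markers kept summed to 1286 in Hom, 1024 and 3008 in Het, and 1140 in WT, and the 3 adipocyte markers to 2847 in Hom, 2372 and 1295 in Het, and 2502 in WT. The part of any cell type in the members' levels was not tested.

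By the rule of likeness, the 5 genes nearest to the mean pattern of the 7 members over the 4 arrays were Col5a2, Serpinf2, Tmem41b, Ptms and Fam189b, at distances of 0.02 to 0.04 log2 units. Col5a2, a chain of the collagen V that nucleates fibrils, came first and read 3689 in Hom, 3352 and 3304 in Het, and 4131 in WT. Over only 4 arrays many genes have such a pattern, and of the members themselves Lum and Bgn had 29 and 30 other genes nearer to the mean pattern, whereas Dcn had 3666.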

How the data were processed

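Total RNA of mouse mitral valve had been measured on 4 single-colour arrays, and groups were taken from the labels. The deposited values are intensities on a linear scale, 1 for each probe set; each deposited array had a mean of 150.1 once 2% of its probe sets were set aside at either end, and the software is not given in the sources used here. Genes came from GEO's annotation of the platform, and their symbols were renewed through RefSeq gene identifiers, which matched for 20364 probe sets. Of all probe sets 20393 had 1 gene, 691 several and 1606 none, and the 64 control ones were not used. As array medians differed by 0.28 log2 units, each array was centred on their mean, floored at 18.95 and log2 transformed; genes with a mean of at least 60.4 were kept.

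Tests used limma 3.58.1 in R 4.3.3 (lmFit, eBayes, 1 residual degree of freedom, Benjamini-Hochberg over 7319 genes, threshold 0.05). The fit was also run on simulated data with the same changes put into Hom and both Het arrays. Those data held no true change between Hom and Het, so they could not check that comparison. The number of arrays limits the precision. The members and gene lists were chosen with earlier results of these data known. Named genes are all members, and, in each other list, genes with 1 of the 2 highest or 2 lowest differences from WT for Hom or for the Het mean; the 4 further family members on the arrays are all given. Likeness was the Euclidean distance over 4 arrays. Alternatives were other scalings, filters, floor and probe set rules, the variance model and each Het array left out.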

Additional observations from a re-analysis of the deposited data

How the results depend on the processing

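The members' differences were identical by construction under 5 of 10 alternatives (no filter, the higher filter, no floor, every probe set fitted, trend and robust), which say nothing about their stability. Under the other 5, 93 of 105 values kept their sign and 12 did not. The 93 include values that could not move: 9 with the mean of all probe sets, for genes with a single probe set kept. They also include 7 with either Het array left out, for Hom against WT, which uses no Het array. None of the 7 members passed limma's threshold in any setting that had a test. The standard errors of 0.46 to 0.57 are those of the main setting. With no filter, the adjusted limma p of Prelp was 0.657 for Het against WT and 0.626 for Hom against Het. Values that changed sign were, with no centring, Aspn for Het against WT (-0.0609) and Ogn for Hom against Het (0.0071); after quantile normalization, Aspn for Het against WT (-0.0838), Dcn (0.031) and Bgn (0.0146) for Hom against WT, and Ogn for Hom against Het (0.0733); and with the mean of all probe sets, Aspn for Het against WT (-0.128), Fmod for Hom against WT (-0.141) and Ogn for Hom against Het (0.138). With a Het array left out, Dcn ran from -0.75 to 0.0646 for Het against WT and from -0.379 to 0.436 for Hom against Het, and Ogn from -0.387 to 0.10 for Hom against Het, in each case changing sign without Het replicate 2.

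Of all genes, limma called for Het against WT 1 in the main setting, 4 after quantile normalization and 0 with no centring, no filter, no floor or every probe set fitted, where 93, 888, 84 and 96 had an unadjusted p under 0.05. For Hom against Het it called 0 in the main setting, 4 after quantile normalization and 1 with the mean of all probe sets, with trend and robust, or with the higher filter. The members' median was -0.46 for Het against WT and 0.25 for Hom against Het with no centring, and 0.0146 for Hom against WT and 0.22 for Hom against Het after quantile normalization. With a Het array left out it ran from -0.39 to -0.30 for Het against WT and from 0.10 to 0.25 for Hom against Het, and was -0.21 for Hom against WT; these fits have no residual degree of freedom and so no test. The causes were not tested. No paired analysis was possible because WT and Hom have 1 array each. Low signal limits Omd and the second Prelp probe set.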
